A study of Mus musculus with 6 samples.

Results

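Mouse thymus RNA was read here for 8 families of splicing factors and RNA-binding proteins, chosen by gene symbol. They are the serine/arginine-rich splicing factors (Srsf), the heterogeneous nuclear ribonucleoproteins (Hnrnp), the subunits of splicing factor 3 (Sf3a and Sf3b), the U2 auxiliary factors (U2af), the small nuclear ribonucleoprotein polypeptides (Snrp), the pre-mRNA processing factors (Prpf), the RNA-binding motif proteins (Rbm) and the DEAD-box RNA helicases (Ddx). A gene was a member when its symbol began with one of these stems and it had at least 10 reads summed over the 6 libraries. Ddx58, Ddx3y and symbols marked as pseudogenes were left out. The rule found 141 of the 24054 genes in the deposited table, namely 38 Rbm, 36 Ddx, 20 Hnrnp, 13 Prpf, 11 Srsf, 11 Snrp, 9 Sf3 and 3 U2af genes. Just inside the read limit were Rbm46 with 24 reads, Rbm44 with 26 and Ddx25 with 37, and just outside it were Snrpn with 7 reads and Rbm14-rbm4, Rbm46os and Rbm31y with 0. Measured differences between the groups did not enter the rule. One member, Rbm3os, is by its name a transcript antisense to Rbm3 and no protein gene.

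The study compared whole thymus from K5-rtTA:TetO-RANKL mice with thymus from controls, 3 libraries each. In the first group the keratin 5 promoter, active in basal and medullary epithelium, drives the doxycycline-dependent activator rtTA, which switches on a TetO-RANKL transgene, so that RANKL, the cytokine encoded by Tnfsf11, is made when doxycycline is given. The controls were monogenic, and both groups received doxycycline with food and water. The labels disagree on the schedule: the design text has a 1-week course started at 8 weeks of age and the treatment text a 2-week course started at 9 weeks. Sex, litter and strain are not given, and nothing states that each library came from its own animal, so the p-values below measure the spread between these samples, which may be partly technical. Libraries were stranded mRNA preparations made from 250 ng of total RNA.

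Splicing removes introns from pre-mRNA. The U1 particle binds the upstream splice site, U2AF and then the U2 particle with its SF3 subunits mark the downstream site and the branch point, and the U4/U6.U5 particle joins before helicases and Prp proteins drive the chemical steps. SR proteins mostly favour the use of nearby exons, hnRNPs often oppose it, and the balance between them sets alternative splicing. In thymocytes such choices shape transcripts of receptors and signalling proteins, and dividing thymocytes have a high demand for new mRNA and ribosomes.

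The 6 libraries held 18254870 to 25357060 counted reads. Transcripts of the induced gene, Tnfsf11, were at 6.01, 6.34 and 8.89 CPM in the controls and at 3334, 4812 and 2390 CPM in the RANKL libraries, in the direction the labels give. CPM are counts scaled to the library total after correction by TMM factors, which allow for a shift in composition between libraries. Of 13 thymocyte markers listed for double-positive cells, the main cell of the thymic cortex, 13 were lower in RANKL. The list includes Cd3e, Lck and Tcf7, so it does not tell this stage from other T-lineage cells. The summed level of the 13 markers was 13734 to 15638 CPM in the controls. In RANKL replicates 1, 2 and 3 it was 409, 721 and 1521 CPM. Of 12 cell cycle genes 12 were lower, with sums of 2975 to 3886 CPM against 763 to 912 CPM. The 7 medullary epithelium markers were all higher (518 to 647 CPM in the controls, 4202 to 5566 CPM in RANKL), as were the 6 keratinocyte (32.7 to 50.0 against 1071 to 3015), 6 fibroblast (393 to 497 against 3924 to 7689), 6 neutrophil (17.6 to 41.6 against 2911 to 5360) and 6 macrophage markers (229 to 332 against 1471 to 2086). Of 5 cortical epithelium markers 4 were lower and Foxn1 was higher, and of 5 endothelial markers 2 were higher. None of the 5 B cell or 6 muscle markers was called, and none of the 77 markers had 0 reads in any library. These shifts accompany every result below, and their part in any of them was not tested. In whole tissue, fewer cells of a type and less RNA per cell cannot be told apart.

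Transcripts of splicing factors and RNA-binding proteins were lower in the RANKL thymus in most members of every family. Of the 138 members with enough reads to be tested, 110 were lower, 5 were higher and 23 were not called at an edgeR adjusted p under 0.05, where 29.6% of all 16096 genes tested were lower and 33.8% were higher. The lower members made up 79.7% of those tested. The median log2 fold change, RANKL over control, was -0.86 for the members, a level 1.81 times higher in the controls, and -0.02 for all genes tested. Most of the called decreases were moderate: 99 of the 110 lay between -0.5 and -1.5 on the log2 scale. Small changes are seldom called, so the call itself limits this band on the side nearest 0. Of the 110, 47 were of at least 2-fold, and 2, Rbm24 and Rbm38, of at least 4-fold. All 138 tested members ran from -3.15 to 2.40. Of the 23 members not called, 22 also had an estimate below 0, Rbm20 being the exception, although Ddx1, Ddx24 and Hnrnph2 crossed to above 0 with upper-quartile scaling. The 5 higher members were Rbm47, Rbm11, Ddx60, Ddx4 and Prpf40b. In 123 of the 138 members, the 115 called ones included, the range of the control libraries did not overlap that of the RANKL libraries, and the same held, in either direction, for 70.1% of all genes tested.

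**Figure D1:**
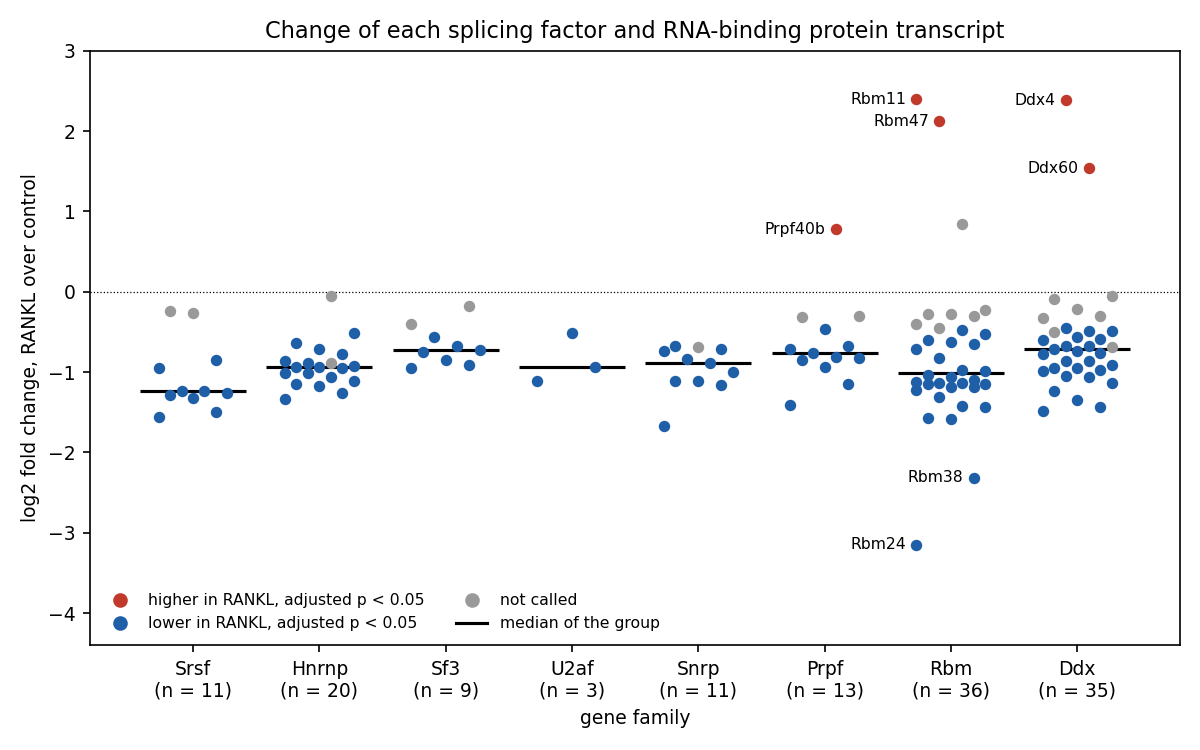
Log2 fold change (y axis, RANKL over control, 3 libraries per group) of each of the 138 members tested, by gene family on the x axis. Red points were called higher, blue lower and grey not called; black bars are family medians, which lie between -1.24 (Srsf) and -0.71 (Ddx).

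Summed over all members, the level was 24542, 25215 and 24943 CPM in control replicates 1, 2 and 3 and 12066, 14585 and 15182 CPM in RANKL replicates 1, 2 and 3. Reads of these genes thus made up 2.49% of the control and 1.39% of the RANKL total on average. The control sums lay close together while the RANKL sums were further apart, with replicate 1 lowest. That library held the lowest RANKL value in 77 of the 110 lower members, and RANKL replicate 3 the highest in 66. The same order holds for the thymocyte marker sums, which were lowest in RANKL replicate 1 and highest in replicate 3. No control library stood apart in this way, control replicate 1 being the highest control in 40, replicate 2 in 36 and replicate 3 in 34 of the 110. Without RANKL replicate 1 the members' median was -0.74 and 88 were lower.

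**Figure D2:**
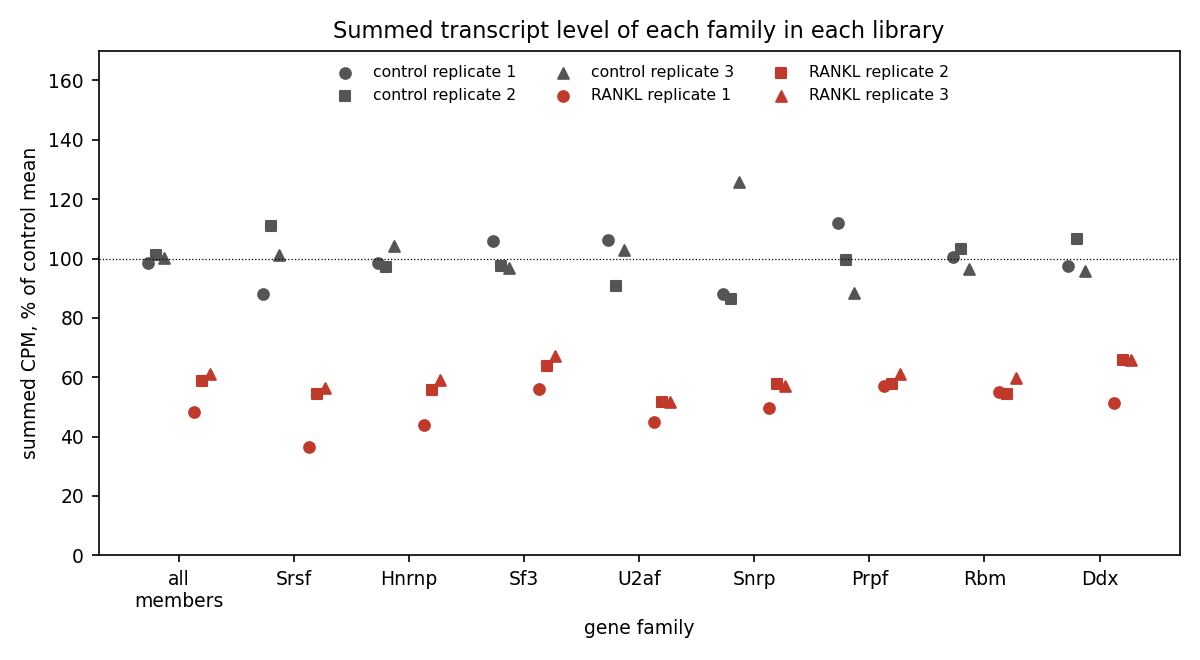
Summed CPM of all members and of each family in each library, as % of the mean of the 3 controls (dotted line at 100). Every RANKL library (red) lies below every control library (grey) in each family, and RANKL replicate 1 is lowest for the sum over all members.

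Since the members moved together, the bases before their transcription starts were searched for a few short motifs of common promoter-binding factors. RefSeq promoters of GRCm38.p6 were found for 120 of the 141 members, and a motif was counted in the window from 250 bases before to 50 after any annotated start, on either strand. The ETS family motif CCGGAAGT was present in 17 of the 120 members, or 14.2%, against 7.54% of the 12462 tested genes with a promoter and 4.31% of all 27025 genes with one. The CCAAT box CCAATCAG was present in 14 members, or 11.7%, against 6.09% of tested genes and 4.70% of all. The other 6 motifs, for E2F (2 spellings), YY1, NRF1, NF-kB and CREB factors, each stood in 2 to 6 members. Each was also more frequent in members than in tested genes. The shares were 2.5% against 0.987% and 1.67% against 0.682% for E2F, and 4.17% against 2.87% for YY1. For NRF1 they were 4.17% against 3.42%, for NF-kB 2.5% against 1.725% and for CREB 5% against 3.19%. These shares rest on few members, and no difference in share was tested for any motif. None of the 8 motifs contains another. By call, the ETS motif stood in 15 of 94 lower, 2 of 19 uncalled and 0 of 5 higher members, and the CCAAT box in 9, 2 and 2 of them. A match is only a run of letters, and no test of binding was made.

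The 250 bases before a start are printed for 4 members that reappear below, 2 with each motif. Prpf4b and Ddx17 are the strongest decreases of their families that carry the ETS motif, and Srsf3 and Ddx5 are abundant members with a CCAAT box. Capitals mark the motif, which in the last pair is read on the other strand as CTGATTGG. The Prpf4b window is chr13:34875279-34875528 on the plus strand, that of Ddx17 chr15:79546742-79546991 on the minus strand, that of Srsf3 chr17:29032410-29032659 on the plus strand and that of Ddx5 chr11:106789186-106789435 on the minus strand, all in GRCm38.p6. For Prpf4b and Ddx17 the start used lies inside the gene's coordinates and is not its outermost one.
Prpf4b: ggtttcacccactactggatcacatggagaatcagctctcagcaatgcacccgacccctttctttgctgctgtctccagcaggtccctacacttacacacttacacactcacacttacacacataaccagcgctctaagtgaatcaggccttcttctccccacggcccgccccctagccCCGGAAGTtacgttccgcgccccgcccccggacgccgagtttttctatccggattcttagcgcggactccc
Ddx17: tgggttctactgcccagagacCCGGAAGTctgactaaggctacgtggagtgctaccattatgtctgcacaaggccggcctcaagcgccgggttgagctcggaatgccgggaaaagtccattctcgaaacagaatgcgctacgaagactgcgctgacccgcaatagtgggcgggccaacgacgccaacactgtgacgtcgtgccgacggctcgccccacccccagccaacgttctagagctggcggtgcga
Srsf3: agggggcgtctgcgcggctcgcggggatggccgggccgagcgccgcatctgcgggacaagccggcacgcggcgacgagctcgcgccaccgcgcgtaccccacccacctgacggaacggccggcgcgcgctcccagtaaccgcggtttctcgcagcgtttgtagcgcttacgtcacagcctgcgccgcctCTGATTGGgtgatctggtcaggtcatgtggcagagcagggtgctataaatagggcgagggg
Ddx5: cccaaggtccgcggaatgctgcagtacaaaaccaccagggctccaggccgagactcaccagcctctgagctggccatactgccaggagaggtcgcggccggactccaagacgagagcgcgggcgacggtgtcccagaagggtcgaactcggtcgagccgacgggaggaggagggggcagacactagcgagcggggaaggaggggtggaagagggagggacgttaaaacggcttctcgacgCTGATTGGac
The first base of the motif lies 71 bases before the start in Prpf4b, 229 in Ddx17, 61 in Srsf3 and 10 in Ddx5. The genes that share a motif did not change alike: Prpf4b and Ddx17 had log2 fold changes of -1.41 and -1.34, but Srsf5, which also has the ETS motif, was at -0.27 and not called, and Srsf3 was at -1.24 against -0.59 for Ddx5.

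SR proteins, which bind exonic enhancers and recruit the early spliceosome, had the largest median decrease of the 8 families, -1.24 over 11 genes. Of these 9 were lower and 7 by at least 2-fold. Srsf7, an SR protein with a zinc knuckle (Entrez gene 225027, chromosome 17, 80200080 to 80207369), was at 284, 387 and 320 CPM in control replicates 1, 2 and 3 and at 90.5, 115 and 131 CPM in RANKL replicates 1, 2 and 3. The lowest control was well above the highest RANKL library, and the log2 fold change was -1.56 ± 0.20 (SE). Its relative Srsf3 was at 369, 430 and 515 CPM against 168, 191 and 198 (-1.24 ± 0.18). Srsf1, the founding member of the family, was at 469, 532 and 456 CPM against 148, 213 and 236 (-1.29 ± 0.20). Both again were separated without overlap. Srsf4 fell from 30.5 ± 3.17 to 12.2 ± 1.24 CPM (mean ± SD, n = 3 per group, here and below), a log2 fold change of -1.32 ± 0.19. Srsf10, a repressor that is switched by its phosphorylation, and Srsf11 had log2 fold changes of -1.26 ± 0.17 and -1.23 ± 0.14. Srsf2, which also acts in transcription elongation, and Srsf6 fell less, at -0.84 ± 0.17 and -0.95 ± 0.26. Srsf12, a relative of Srsf10 with few reads, at 1.45 ± 0.129 against 0.508 ± 0.222 CPM, was lower by edgeR (-1.49 ± 0.44), but not without RANKL replicate 1 (-1.24, adjusted p = 0.0658).

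Srsf5 and Srsf9 were the SR genes not called. Srsf5 was at 150, 354 and 257 CPM in the controls and at 90.2, 274 and 269 CPM in RANKL, so that replicate 1 of each group was far below its fellows and the groups overlapped (-0.27 ± 0.42). Its estimate rose above 0 without control replicate 2 (0.03) or without RANKL replicate 1 (0.12), with adjusted p values of 0.965 and 0.766. Srsf9, the closest relative of Srsf1, was at 74.5, 68.5 and 92.0 CPM against 59.8, 73.2 and 66.1 (-0.24 ± 0.17). Its groups overlapped as well.

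The hnRNPs package nascent RNA and act on splicing, export, stability and translation. Of 20 genes 18 were lower, 8 of them by at least 2-fold, with a median of -0.94. Hnrnpc, which binds uridine tracts, showed the largest change (Entrez gene 15381, chromosome 14, 52073377 to 52104039): 579, 567 and 612 CPM in the controls against 209, 236 and 253 in RANKL (-1.33 ± 0.16). Both groups were tight and far apart. Hnrnpf, a binder of guanine tracts, was at 345, 270 and 322 CPM against 112, 136 and 142 (-1.26 ± 0.17), again without overlap. Hnrnph3, a shorter relative of Hnrnpf, was lower at a much smaller level, 7.95 ± 2.23 against 3.52 ± 1.10 CPM (-1.17 ± 0.34), and missed the threshold without control replicate 2 (-0.95, adjusted p = 0.0538) or RANKL replicate 1 (-0.92, adjusted p = 0.05).

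The hnRNPs with the highest CPM were 1.71 to 2.22 times higher in the controls. Hnrnpa2b1, which binds many nuclear and transported RNAs, was at 1031, 1185 and 1320 CPM in the controls and at 360, 575 and 658 CPM in RANKL (-1.15 ± 0.24). Hnrnpu, a large scaffold protein that also binds chromatin, fell from 904 ± 62.3 to 496 ± 76.5 CPM (-0.87 ± 0.18) and Hnrnpk, a binder of cytosine-rich RNA, from 761 ± 51.9 to 445 ± 43.2 CPM (-0.77 ± 0.17). Per kilobase of exon, Hnrnpa2b1 had the highest control level of all 141 members, 484 CPM per kb, followed by Ddx5 with 374, Snrpb with 311 and Hnrnpab with 256. In RANKL Ddx5 was first with 248 CPM per kb and Hnrnpa2b1 was at 218. The SDs of these 2 RANKL levels, 63.3 and 63.1, exceed the gap between them.

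Among related hnRNPs, Hnrnpl and Hnrnpll, the CA-repeat binders of which Hnrnpll controls splicing of the phosphatase CD45 in lymphocytes, fell alike. Hnrnpl was at 463, 438 and 476 CPM against 193, 250 and 273 (-0.94 ± 0.18) and Hnrnpll at 145, 115 and 126 CPM against 68.0, 63.6 and 68.8 (-0.95 ± 0.15). Their log2 ratio was 1.84 ± 0.14 in the controls and 1.83 ± 0.27 in RANKL. Hnrnpd, a regulator of AU-rich mRNAs, fell by 0.92 ± 0.18 on the log2 scale. Its relatives Hnrnpab and Hnrnpdl fell by 0.71 ± 0.20 and 0.63 ± 0.21, calls that were lost for Hnrnpab without RANKL replicate 1 (-0.58, adjusted p = 0.057) and for Hnrnpdl without control replicate 2 (-0.42, adjusted p = 0.0798), RANKL replicate 1 (-0.63, adjusted p = 0.061) or RANKL replicate 2 (-0.55, adjusted p = 0.0861). Hnrnpa3 fell by 1.01 ± 0.24, Hnrnpul1 by 0.88 ± 0.19 and Hnrnpul2 by 0.51 ± 0.15, the last not called without RANKL replicate 1 (-0.42, adjusted p = 0.0745).

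Hnrnph2 and Hnrnpa1 were the hnRNP genes not called. Hnrnph2 was at 94.5, 102 and 106 CPM in the controls and 74.8, 116 and 101 in RANKL (-0.05 ± 0.18), turning to 0.14 without RANKL replicate 1 (adjusted p = 0.542). Its near relative Hnrnph1 was at 274, 511 and 338 CPM against 107, 205 and 225 (-1.06 ± 0.31), not called without control replicate 2 (-0.80, adjusted p = 0.0536). The Hnrnph1 groups were apart while those of Hnrnph2 overlapped. Hnrnpa1, otherwise known as one of the most abundant nuclear proteins, was listed at only 8.38, 23.5 and 10.8 CPM against 4.95, 7.08 and 10.9 (-0.89 ± 0.42, adjusted p = 0.0891). It passed the threshold without control replicate 1 (-1.18, adjusted p = 0.0342) or RANKL replicate 3 (-1.21, adjusted p = 0.0455). The mouse genome holds many near-identical processed copies of Hnrnpa1, and how the authors' counting shared reads between them was not tested, so this level is uncertain.

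The SF3A and SF3B subunits anchor the U2 particle at the branch point. Of 9 genes 7 were lower, none by as much as 2-fold, with a median of -0.73. The Sf3a subunits fell most: Sf3a3 from 113 ± 12.6 to 58.6 ± 5.58 CPM (-0.95 ± 0.16), Sf3a1 from 166 ± 39.0 to 88.8 ± 3.27 CPM (-0.91 ± 0.19) and Sf3a2 from 77.3 ± 14.5 to 43.0 ± 4.63 CPM (-0.85 ± 0.18). Sf3b1, the subunit that clasps the branch point adenosine, was at 602, 782 and 611 CPM against 294, 427 and 468 (-0.75 ± 0.22). It was not called without RANKL replicate 1 (-0.54, adjusted p = 0.0608). Sf3b2 and Sf3b3 fell by 0.56 ± 0.16 and 0.73 ± 0.21. The 2 genes not called were Sf3b5, at 53.4 ± 6.29 against 47.4 ± 2.30 CPM (-0.17 ± 0.15), and Sf3b6, at 157 ± 29.2 against 118 ± 8.98 CPM (-0.40 ± 0.17). Sf3b6 did pass without control replicate 1 (-0.54, adjusted p = 0.0289).

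U2AF recognises the downstream splice site. U2af2, which binds the pyrimidine tract, was at 388, 296 and 343 CPM in the controls and 144, 167 and 165 CPM in RANKL (-1.11 ± 0.17). U2af1, which reads the AG at the intron end, was at 126, 132 and 149 CPM against 65.7, 74.6 and 72.1 (-0.94 ± 0.15). Both subunits were thus lower in every RANKL library than in any control. The U2af1 relative U2af1l4 fell less, from 27.2, 33.5 and 32.9 CPM to 18.9, 21.6 and 24.9 CPM (-0.52 ± 0.18, adjusted p = 0.0319), and its call was lost on leaving out any library but control replicate 1, with adjusted p values from 0.0521 without RANKL replicate 3 to 0.158 without RANKL replicate 1 (log2 fold changes -0.59 and -0.39).

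The Snrp genes encode the Sm ring shared by the spliceosomal particles and proteins particular to U1 and U2. Of 11 genes 10 were lower, 4 by at least 2-fold, with a median of -0.89. Of the Sm ring, Snrpe was at 117, 147 and 206 CPM in the controls against 60.7, 72.3 and 76.6 in RANKL (-1.16 ± 0.22), Snrpg at 58.3, 74.7 and 91.8 against 36.5, 34.7 and 33.2 (-1.11 ± 0.19) and Snrpd1 at 82.6, 100 and 164 against 43.2, 55.8 and 62.4 (-1.11 ± 0.26). Control replicate 3 was the highest library in each of these, and in the whole family: its Snrp sum was 1528 CPM against 1072 and 1049 in the other 2 controls, and 603 to 701 in RANKL. Snrpb, the highest of the family per kilobase of exon, fell from 361 ± 65.4 to 216 ± 2.72 CPM (-0.74 ± 0.18). Snrpd3 was the member not called, at 78.7, 96.4 and 170 CPM against 51.8, 85.4 and 77.9 (-0.68 ± 0.29, adjusted p = 0.0662). It was called without control replicate 1 (-0.92, adjusted p = 0.0224), by DESeq2 (adjusted p = 0.0488) and in a fit with a term for the range of the title number (adjusted p = 0.00544). In the last of these fits control replicate 2 stood alone in its range and did not bear on the comparison. The U1 protein gene Snrpa and the U2 protein gene Snrpb2 fell by 0.71 ± 0.19 and 0.89 ± 0.21.

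Prpf genes encode proteins of the U1, U4/U6 and U5 particles and of the activated spliceosome. Of 13 genes 10 were lower, 1 was higher and 2 were not called, with a median of -0.76. Prpf4b, a kinase of the tri-snRNP stage (Entrez gene 19134, chromosome 13, 34874820 to 34906064), was at 138, 194 and 135 CPM in the controls and 48.2, 60.2 and 67.4 CPM in RANKL (-1.41 ± 0.20). Prpf3, a U4/U6 protein, was at 70.3, 70.3 and 65.6 CPM against 27.5, 31.1 and 34.4 (-1.15 ± 0.15). Prpf39, a U1-associated protein, was at 51.1, 88.1 and 46.1 CPM against 24.0, 33.6 and 39.1 (-0.94 ± 0.27). The first 2 were far apart between groups, while Prpf39 was not called without control replicate 2 (-0.62, adjusted p = 0.0537) or RANKL replicate 1 (-0.73, adjusted p = 0.055). Prpf8, the large protein at the catalytic centre, was at 624, 394 and 322 CPM against 267, 240 and 237 (-0.85 ± 0.24), Prpf19, a ubiquitin ligase, fell from 224 ± 32.4 to 132 ± 2.93 CPM (-0.76 ± 0.16) and Prpf38b from 184 ± 30.4 to 112 ± 16.4 CPM (-0.71 ± 0.18). The tri-snRNP proteins Prpf31 and Prpf6 were not called, at -0.30 ± 0.15 and -0.32 ± 0.15, although each was lower in every RANKL library than in every control.

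Prpf40b, a U1-associated protein, was the higher member of the Prpf family. It was at 7.80, 15.7 and 8.94 CPM in the controls and 15.8, 18.0 and 21.8 CPM in RANKL (0.78 ± 0.29, adjusted p = 0.0383). The gap between control replicate 2 and RANKL replicate 1 was small. The call was lost without control replicate 1 (0.57, adjusted p = 0.118), control replicate 3 (0.64, adjusted p = 0.122), RANKL replicate 2 (0.80, adjusted p = 0.0685) or RANKL replicate 3 (0.67, adjusted p = 0.116). It was also lost with library totals (adjusted p = 0.0512) or without a filter (adjusted p = 0.0552).

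The Rbm genes share a symbol more than a function. Of 36 tested 27 were lower, 2 were higher and 7 were not called, with a median of -1.01, and 18 were lower by at least 2-fold. Of the 13 that associate with the spliceosome 11 were lower, with a median of -1.14. Rbm39, a U2AF-related factor with the highest CPM of the family, was at 427, 543 and 487 CPM in the controls and 182, 208 and 267 CPM in RANKL (-1.15 ± 0.19). Rbm5, a regulator of apoptosis gene splicing, was at 225, 260 and 168 CPM against 93.8, 93.1 and 110 (-1.14 ± 0.19), and its relative Rbm10 at 142, 118 and 101 CPM against 50.7, 55.6 and 57.0 (-1.14 ± 0.17). The pair fell in step, its log2 ratio being 0.85 ± 0.26 in the controls and 0.86 ± 0.11 in RANKL. Rbm4b fell from 30.4 ± 7.01 to 10.3 ± 0.971 CPM (-1.57 ± 0.22). Its near-identical neighbour Rbm4 was listed at 1.36 ± 0.482 against 0.600 ± 0.133 CPM (-1.18 ± 0.45) and called narrowly (adjusted p = 0.0425). The call was lost on leaving out any library but control replicate 3, at adjusted p values from 0.0648 without RANKL replicate 1 to 0.141 without RANKL replicate 3. It was also lost by DESeq2 (adjusted p = 0.0775), by limma-voom without quality weights (0.0661) and with upper-quartile scaling (0.0637). Reads may be split between Rbm4 and Rbm4b. Rbm8a, a core protein of the exon junction complex, and Rbm42 were not called, at -0.45 ± 0.22 and -0.23 ± 0.19. Rbm8a was called without control replicate 1 (-0.64, adjusted p = 0.0289) and Rbm42 without control replicate 2 (-0.44, adjusted p = 0.0458).

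Rbm genes that act in RNA methylation or nuclear RNA decay were lower in 5 of 5, with a median of -0.98. Rbm15, an adaptor of the m6A methyltransferase, fell from 35.4 ± 7.20 to 16.2 ± 1.68 CPM (-1.13 ± 0.20) and its paralogue Rbm15b from 79.1 ± 22.6 to 40.1 ± 7.31 CPM (-0.98 ± 0.23). Rbm26 and Rbm27, zinc finger proteins of a nuclear decay adaptor, fell unequally, by 1.12 ± 0.16 and 0.65 ± 0.18. Rbm7, of a nuclear exosome adaptor, was at -0.47 ± 0.16, a call lost without control replicate 3 (-0.40, adjusted p = 0.0579), RANKL replicate 2 (-0.41, adjusted p = 0.097) or RANKL replicate 3 (-0.40, adjusted p = 0.121). Of the 3 nucleolar genes 2 were lower, Rbm19 by 0.71 ± 0.18 and Rbm28 by 0.52 ± 0.18, and Rbm34 was not called (-0.28 ± 0.23). The Rbm28 call was lost without control replicate 2 (-0.40, adjusted p = 0.101), RANKL replicate 1 (-0.39, adjusted p = 0.135) or RANKL replicate 2 (-0.53, adjusted p = 0.0657).

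Of 6 tissue-restricted or inducible Rbm genes tested, 2 were higher and 2 lower, shares near the 33.8% higher and 29.6% lower among all genes. The 2 lower ones, Rbm24 and Rbm38, had the largest decreases of all members. Rbm24, known as a splicing and mRNA stability factor of muscle and heart (Entrez gene 666794, chromosome 13, 46418102 to 46431099), was at 12.1, 10.1 and 9.51 CPM in the controls and 1.08, 1.02 and 1.46 CPM in RANKL. It was 8.91 times higher in the controls, a log2 fold change of -3.15 ± 0.30, and the 2 groups of libraries were each tight. Its paralogue Rbm38, a p53 target that stabilises or destabilises cell cycle mRNAs (Entrez gene 56190, chromosome 2, 173021891 to 173034734), was at 226, 165 and 184 CPM against 34.0, 28.3 and 53.4 (-2.31 ± 0.25, 4.97 times higher in the controls). RANKL replicate 3 held the most of both transcripts among RANKL libraries, as it did of the thymocyte markers. The other end of the order differed, though for Rbm24 only by 1.08 against 1.02 CPM in replicates 1 and 2. Both transcripts were lowest in RANKL replicate 2, and the thymocyte markers in replicate 1, with sums of 409, 721 and 1521 CPM in replicates 1, 2 and 3. The cortical epithelium markers summed to 175, 112 and 290 CPM in the same libraries, lowest in replicate 2. A link of either transcript with these markers was not tested. The muscle markers, of which none was called, ran from 12.5 to 185 CPM in the controls and from 13.1 to 83.2 CPM in RANKL, and both Rbm24 and Rbm38 kept their call in every setting tried.

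Rbm47, an epithelial RNA-binding protein that also serves as cofactor of the cytidine deaminase Apobec1 (Entrez gene 245945, chromosome 5, 66016549 to 66151954), rose. It was at 14.0, 8.81 and 8.17 CPM in the controls and 48.4, 44.2 and 42.2 CPM in RANKL, a 4.35-fold increase (log2 fold change 2.12 ± 0.23). The RANKL libraries lay close together and well above the highest control. Over the same libraries the medullary epithelium markers summed to 647, 595 and 518 CPM in the controls and 4202, 5566 and 4322 CPM in RANKL. Among RANKL libraries Rbm47 was highest in replicate 1, where this sum was lowest. The markers in the sum did not share an order over RANKL replicates 1, 2 and 3. Krt5, the largest of them, was at 2159, 2793 and 2129 CPM, Epcam at 566, 519 and 496 CPM and Aire at 110, 104 and 235 CPM. Keratinocyte, fibroblast, neutrophil and macrophage markers were higher in RANKL as well. Rbm11, described in brain and testis, rose from 0.474, 0.412 and 0.239 CPM (9, 8 and 5 reads) to 1.18, 3.38 and 1.37 CPM (22, 83 and 29 reads), a log2 fold change of 2.40 ± 0.56. RANKL replicate 2 lifted this mean, and without it the log2 fold change was 1.77, still called. Rbm20, the titin splicing factor of heart, was at 6.27, 4.84 and 3.54 CPM against 12.3, 4.88 and 9.19 (0.84 ± 0.37). It was not called by edgeR (adjusted p = 0.0732) but was by DESeq2 (adjusted p = 0.0475) and without RANKL replicate 2 (1.15, adjusted p = 0.0114). Rbm3, induced by mild cold, was at 344 ± 44.1 against 280 ± 42.5 CPM and was not called (-0.30 ± 0.18). Rbm44 and Rbm46, germ cell factors with 26 and 24 reads in all, were too low to be tested.

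**Figure D3:**
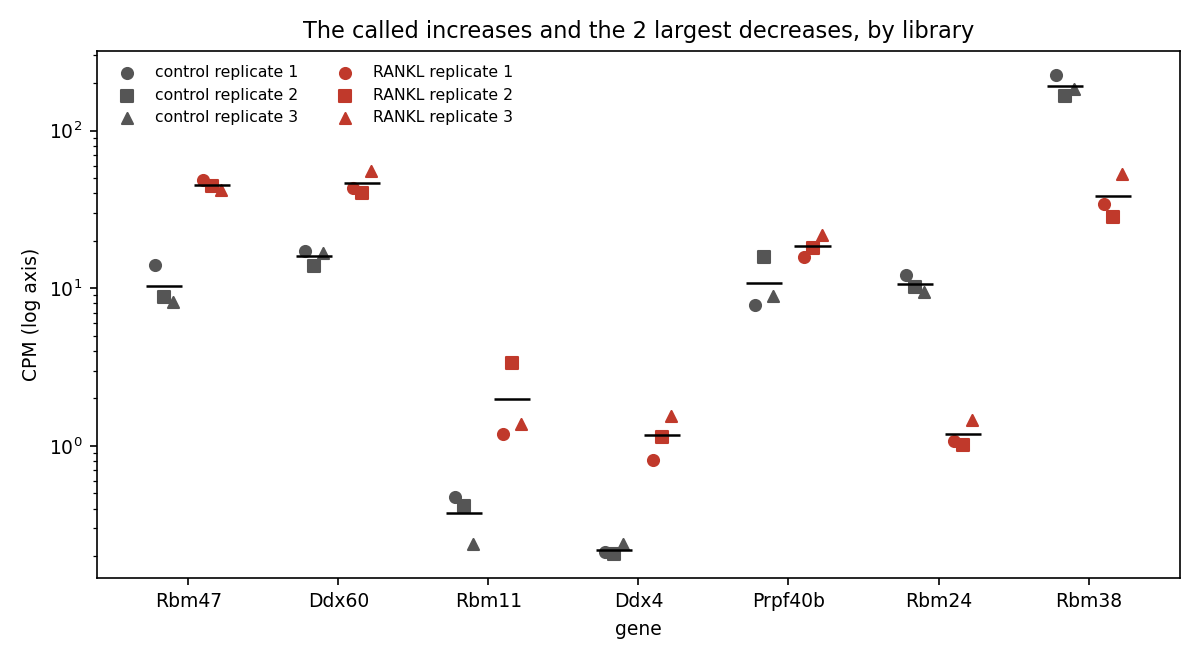
CPM on a log axis for the 5 members called higher and the 2 with the largest decreases, in each library; points are libraries and bars group means. Rbm24 lies between 9.51 and 12.1 CPM in the controls and between 1.02 and 1.46 in RANKL, and Rbm47 shows the opposite order.

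DEAD-box helicases remodel RNA and RNA-protein complexes at every step from transcription to decay. Of 35 tested 26 were lower, 2 were higher and 7 were not called, with a median of -0.71. All 11 that work in splicing and mRNA export were lower, with a median of -0.95, though Ddx42 (-0.49 ± 0.17) was not called without control replicate 2 (-0.40, adjusted p = 0.0995) or without any one of RANKL replicates 1, 2 and 3 (-0.35, -0.52 and -0.54, adjusted p = 0.151, 0.0578 and 0.0506). Ddx17 (Entrez gene 67040, chromosome 15, 79527696 to 79546764) was at 669, 916 and 661 CPM in the controls and 191, 326 and 370 CPM in RANKL (-1.34 ± 0.26). Its paralogue Ddx5, a coregulator of transcription and splicing that often pairs with it, was at 1146, 1537 and 1311 CPM against 624, 981 and 1041 (-0.59 ± 0.23, adjusted p = 0.0455). Both sets of libraries were separated, but the Ddx5 call was lost without any one of control replicate 2, control replicate 3 and the 3 RANKL libraries. Adjusted p values then ran from 0.05 without RANKL replicate 3 to 0.205 without RANKL replicate 1 (log2 fold changes -0.70 and -0.36). The Ddx5 call was also lost with upper-quartile scaling (adjusted p = 0.0831) or library totals (0.0549). The same held with a filter of 1 CPM in 3 libraries (0.0567) and without robust estimation (0.0517). Ddx39, an export helicase that rises in dividing cells, fell from 186 ± 13.9 to 79.2 ± 12.3 CPM (-1.23 ± 0.17) and its relative Ddx39b, a core export and splicing helicase, from 378 ± 54.0 to 196 ± 41.0 CPM (-0.95 ± 0.20). Ddx46 and Ddx23, the helicases that admit the U2 and the tri-snRNP particles, fell by 0.98 ± 0.16 and 0.95 ± 0.14. The nuclear pore helicases Ddx19a and Ddx19b fell alike, by 0.97 ± 0.17 and 0.91 ± 0.15.

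Helicases of ribosome assembly were lower in 9 of 13, with a median of -0.68. The largest decreases there were in Ddx55 (-1.13 ± 0.21), Ddx10 (-1.06 ± 0.18) and Ddx47 (-1.05 ± 0.16). Ddx21, Ddx24, Ddx51 and Ddx56 were not called, at -0.22 ± 0.17, -0.05 ± 0.19, -0.30 ± 0.17 and -0.32 ± 0.16. Ddx24 was at 158, 103 and 139 CPM in the controls against 121, 144 and 120 in RANKL, with full overlap. The Ddx21 paralogue Ddx50 was lower at -0.49 ± 0.18 (adjusted p = 0.0388), a call lost without any one of control replicates 2 and 3 and the RANKL libraries. Adjusted p values then ran from 0.0807 without control replicate 2 to 0.147 without RANKL replicate 1 (-0.50 and -0.42). Upper-quartile scaling (adjusted p = 0.0932), library totals (0.0531) and a filter of 1 CPM in 3 libraries (0.0504) lost it too. The cytoplasmic helicases Ddx6, of mRNA decay and storage, and Ddx3x, of translation, fell by 0.86 ± 0.18 and 0.45 ± 0.16. The Ddx3x call was lost without control replicate 1 (-0.47, adjusted p = 0.0559), control replicate 2 (-0.44, adjusted p = 0.069), RANKL replicate 1 (-0.38, adjusted p = 0.136) or RANKL replicate 3 (-0.38, adjusted p = 0.141).

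Outside these groups, Ddx11, a DNA helicase of sister chromatid cohesion, was at 36.5, 44.0 and 27.4 CPM in the controls and 9.37, 15.1 and 14.2 CPM in RANKL (-1.48 ± 0.25). Ddx43 was at 2.58, 6.70 and 4.06 CPM against 0.700, 2.16 and 2.03 (-1.44 ± 0.50), not called without control replicate 2 (-1.05, adjusted p = 0.121), control replicate 3 (-1.51, adjusted p = 0.0568) or RANKL replicate 1 (-1.06, adjusted p = 0.0837). Over the same libraries the 12 cell cycle genes summed to 3886, 3472 and 2975 CPM in the controls and to 763, 912 and 911 CPM in RANKL, and their part in these decreases was not tested.

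The Ddx genes that rose are no part of the splicing machinery. Ddx60, an interferon-inducible helicase of antiviral sensing (Entrez gene 234311, chromosome 8, 61928073 to 62037704), was at 17.3, 13.9 and 16.8 CPM in the controls and 43.1, 40.5 and 55.7 CPM in RANKL, a 2.90-fold increase (1.54 ± 0.19). The lowest RANKL library was more than 2-fold above the highest control. Ddx4, the germ cell helicase known as Vasa, rose from 4, 4 and 5 reads to 15, 28 and 33, or from 0.219 ± 0.0177 to 1.17 ± 0.375 CPM (2.39 ± 0.48). Control reads of Ddx4 were only just above a floor of 3 per library, so its fold is imprecise although its call held in every setting that tested it. Ddx25, another germ cell helicase, had 37 reads in all and was not tested.

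Ratios between related genes were read within each library, where a shift shared by both genes cancels. Of 26 pairs listed, 25 were in the table, and in 8 the RANKL and control ratios did not overlap. The 3 libraries per group cannot give an exact permutation p below 0.10, so no p is given for them. No share over other gene pairs was computed, and with 70.1% of single genes not overlapping, the count is a description only. Ddx5 gained on Ddx17: the log2 ratio of their CPM was 0.78, 0.75 and 0.99 in the controls and 1.71, 1.59 and 1.49 in RANKL, a shift of 0.76. Srsf1 lost to Srsf9, from 2.65, 2.96 and 2.31 to 1.30, 1.54 and 1.84, a shift of -1.08, and Hnrnph1 lost to Hnrnph2, from 1.54, 2.32 and 1.68 to 0.52, 0.83 and 1.16, a shift of -1.01. In both of these pairs the second gene was not called and the first was lower. Rbm24 lost to Rbm38 by 0.81, as a difference of log2 ratios, Rbm26 to Rbm27 by 0.48, U2af1 to U2af1l4 by 0.42 and Hnrnpul1 to Hnrnpul2 by 0.35. The pair of Rbm46 and Rbm47 also did not overlap, but Rbm46 had 24 reads in all. In the other 17 pairs the ranges of the ratios overlapped, among them Srsf3 and Srsf7, Srsf5 and Srsf6, Srsf4 and Srsf6, Srsf10 and Srsf12, Rbm15 and Rbm15b, Ddx19a and Ddx19b, Ddx21 and Ddx50, and Ddx39 and Ddx39b.

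**Figure D4:**
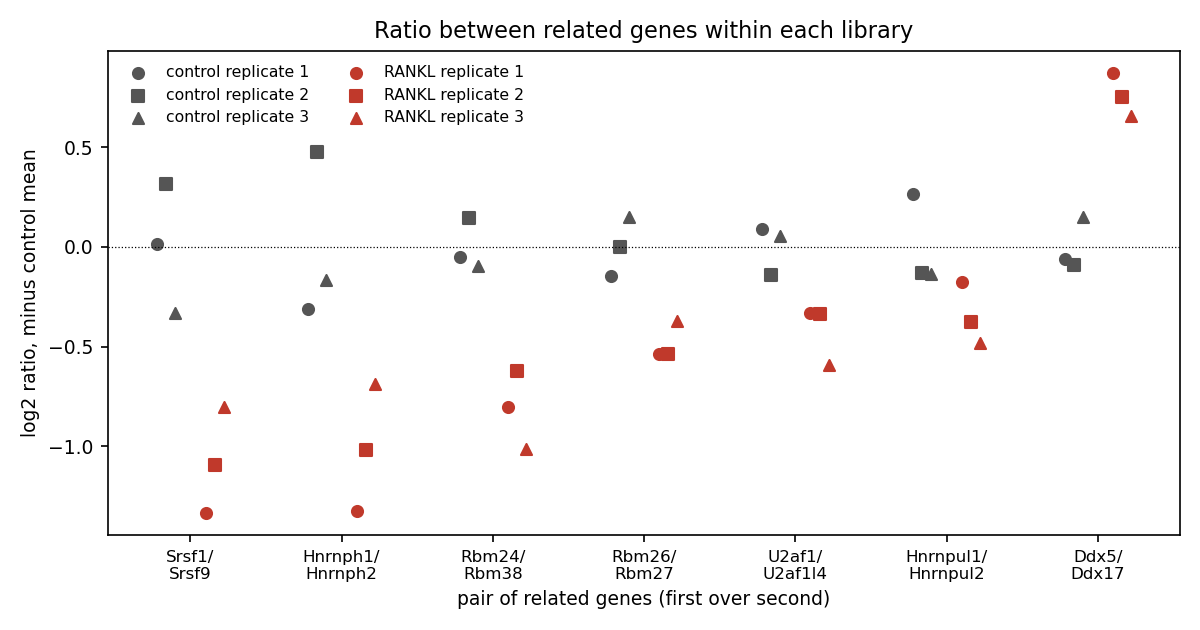
Log2 ratio of the CPM of 2 related genes in each library, minus the mean of the 3 controls, for the 7 pairs without overlap between groups and with both genes tested. RANKL libraries (red) lie below the controls (grey) in 6 pairs and above them, at a mean shift of 0.76, for Ddx5 over Ddx17.

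Splicing genes outside the naming rule were read from 7 lists. Of 101 tested 71 were lower (70.3%), 7 were higher (6.93%) and 23 were not called, with a median of -0.79. Among all 16096 genes tested 29.6% were lower and 33.8% higher, with a median of -0.02, and the list counts below are read beside these shares. Among LSm proteins, the relatives of Sm proteins on U6 RNA and in decay, 12 of 14 were lower, led by Lsm11 (-1.65 ± 0.23), Lsm5 (-1.42 ± 0.20) and Lsm3 (-1.23 ± 0.22). The catalytic complex and its DEAH helicases were lower in 17 of 19, with Ctnnbl1 at -1.12 ± 0.17, Dhx15 at -1.04 ± 0.15 and Dhx8 at -0.99 ± 0.18. Particle proteins named Snrnp were lower in 5 of 7, led by Snrnp40 (-1.17 ± 0.17), Snrnp48 (-0.93 ± 0.22) and Snrnp70 (-0.91 ± 0.23). These lists thus held no gene called higher. The same was true of the exon junction complex, lower in 3 of 4 with Magoh at -1.14 ± 0.21, and of snRNP assembly, lower in 7 of 11 with Gemin5, Gemin2 and Gemin8 at -1.27 ± 0.18, -1.25 ± 0.22 and -1.21 ± 0.28. SR-related coactivators and kinases were lower in 12 of 17. The largest change there was in Clk3, a kinase of SR proteins, which was at 324, 390 and 331 CPM in the controls and 58.2, 94.8 and 114 CPM in RANKL (-1.97 ± 0.24), followed by the coactivators Pnn (-1.56 ± 0.28) and Tra2b (-1.29 ± 0.16).

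Splicing regulators with tissue-restricted use behaved unevenly, with 15 lower, 7 higher and 7 not called of 29 tested. The shares were 51.7% lower and 24.1% higher, against 29.6% and 33.8% of all genes tested. Those that fell most were Mbnl3 (-1.96 ± 0.20), a regulator of the muscleblind family, Tia1 (-1.80 ± 0.22), a binder of uridine-rich introns, and Celf2 (-1.61 ± 0.16), a regulator of T cell splicing. Those that rose most were Esrp1, the epithelial splicing regulator, and the Fox proteins Rbfox3 and Rbfox1, known from neurons and muscle. Esrp1 was at 19.6, 16.4 and 11.8 CPM in the controls and 142, 131 and 104 CPM in RANKL (2.98 ± 0.22). Rbfox3 was at 0.158, 0.206 and 0.191 CPM against 1.72, 1.02 and 1.70 (2.95 ± 0.48), and its controls held only 3, 4 and 4 reads, so this fold is imprecise. Rbfox1 was at 4.74, 4.07 and 2.68 CPM against 17.7, 12.4 and 8.62 (1.75 ± 0.34). No range overlapped. Esrp1 and Rbm47, both known from epithelium, were higher in the libraries in which the 7 medullary epithelium markers were higher. Keratinocyte, fibroblast, neutrophil and macrophage markers were higher there too, and 4 of the 5 cortical epithelium markers were lower. Among RANKL libraries both genes were highest in replicate 1, where the medullary sum was lowest (4202 CPM, against 5566 and 4322 CPM). Krt5 was the largest part of that sum, and its markers differed in order. Krt5 was highest in RANKL replicate 2 (2793 CPM), Epcam in replicate 1 (566 CPM) and Aire in replicate 3 (235 CPM). The part of any of these cell types in the results was not tested.

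**Figure D5:**
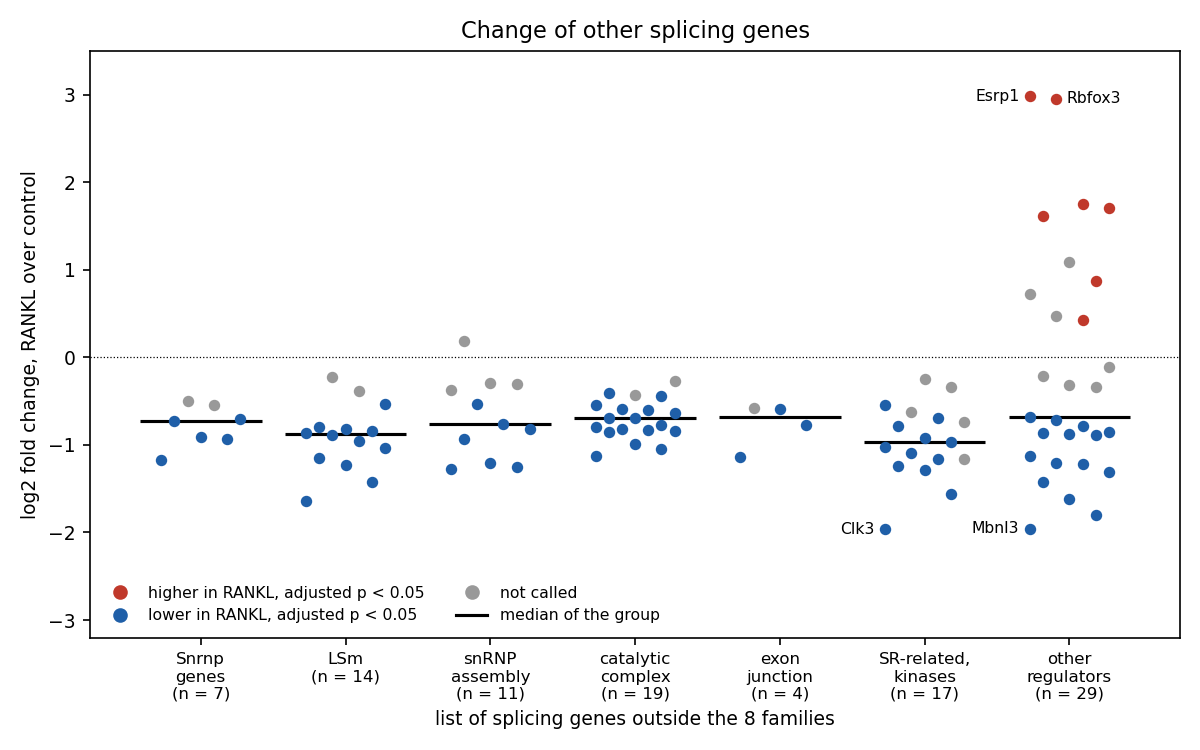
Log2 fold change (y axis, RANKL over control) of the 101 tested splicing genes outside the 8 families, by list. Colours are as for the families; 6 lists hold no gene called higher, and the list of other regulators runs from -1.96 (Mbnl3) to 2.98 (Esrp1).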

How the data were processed

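RNA of whole thymus was sequenced in 3 control and 3 K5-rtTA:TetO-RANKL libraries. The values used are raw counts of reads per gene, as deposited by the authors in a single table. The submitters' processing notes name STAR and the mm10 genome. Neither the STAR version nor the counting method, strand setting or annotation is given in the sources used here, so reads of overlapping, antisense or near-identical genes may be shared. Groups came from the genotype label, and replicates were numbered in accession order.

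edgeR 4.0.16 in R 4.3.3 was used for the comparison: low genes were removed with filterByExpr, libraries scaled with TMM and differences tested two-sided by a robust quasi-likelihood model with group as its only term. P-values were adjusted by Benjamini-Hochberg over all 16096 genes that passed, a call needing an adjusted p under 0.05, and standard errors were derived from the F statistic. The 3 members below the filter were Ddx25, Rbm44 and Rbm46. The code was first tested on simulated data with known changes. Libraries held 18254870 to 25357060 reads, at which 3 reads equal 0.122 to 0.161 CPM, a limit that covers counting error only.

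Members, lists and motifs were chosen with earlier results of these data known. Named in each family were the 3 largest called increases and decreases at a mean log2 CPM of at least 1, the 3 highest levels, all listed pairs, exceptions where 5 or fewer, and members below the filter. Others named in the text were chosen after their values were seen. For 1 member, counted within its family, no value is reported here. Each of the following was tried in turn in place of the above: RLE or upper-quartile scaling or plain library totals, no filter or 1 CPM in 3 libraries, a model without robust estimation, DESeq2 1.42.0, limma-voom (limma 3.58.1) with or without quality weights, an added term for the range of the title number, a threshold of 0.01, a test against 1.5-fold, and each library left out. With the title-number term, control replicate 2 stood alone in its range, so that fit drew nothing from it for the comparison of groups. Levels per kilobase used GENCODE exon unions, matched for 141 of 141 members. Coordinates and promoters came from RefSeq, GRCm38.p6. Figures were drawn with matplotlib 3.10.9.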

Additional observations from a re-analysis of the deposited data

How the results depend on the processing

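The number of lower members was 110 and ran from 100 to 113 over the other scalings, filters and tools and 106 with a term for the title-number range (7 calls lost, Rbm3os, Rbm4, Ddx3x, Hnrnpdl, Rbm28, Ddx42 and Ddx5, at adjusted p from 0.0542 for Ddx5 to 0.146 for Rbm4, and 3 gained, Snrpd3, Rbm8a and Rbm18), but was 81 at a threshold of 0.01 and 59 when tested against a 1.5-fold change. Leaving out each library gave 88 (without RANKL replicate 1) to 112 (without control replicate 1). The number of higher members was 5 and ran from 4 to 6, or 4 to 5 with a library left out. Upper-quartile factors moved the median of all genes from -0.02 to 0.08 and that of the members from -0.86 to -0.75. With these factors 10 called members lost their call. Of the 115 called members 61 kept their call in every setting run, 90 in every setting but the 2 stricter thresholds, and 25 lost it with some library left out, 22 of these without RANKL replicate 1. The causes of these losses were not tested. Only members that were not called changed sign. With upper-quartile factors Ddx1 stood at 0.012, Ddx24 at 0.052 and Hnrnph2 at 0.043, and with quality weights Ddx1 at 0.00498 and Ddx24 at 0.028. With a library left out Ddx1 ran from -0.238 to 0.104, Ddx24 from -0.235 to 0.064, Hnrnph2 from -0.192 to 0.137 and Srsf5 from -0.556 to 0.122. No paired analysis was possible because the labels give no replicate numbers, and those used here follow accession order. Depth limits Rbm11, Ddx4, Rbm4, Rbm3os and Srsf12, which rest on few reads.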

Other observations

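A pair of core factors was counted at levels far below their partners. Snrpf, a subunit of the same Sm ring as Snrpe, was at 2.36 CPM per kb of exon in the controls against 114 for Snrpe, and Hnrnpa1 was at 7.41 against 484 for Hnrnpa2b1. Snrpf was nonetheless lower in RANKL (1.90, 1.86 and 2.34 CPM in the controls, 0.646, 0.732 and 0.518 CPM in RANKL; log2 fold change -1.67 ± 0.38). Both genes were chosen after their values were seen, and how the counting treated reads that fit several copies was not tested.

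Rbm3os, antisense to Rbm3 by its name, was called lower at 0.580, 1.65 and 0.764 CPM in the controls against 0.323, 0.203 and 0.471 CPM in RANKL (-1.58 ± 0.57), while Rbm3 was not called. Its call was lost by DESeq2, by limma-voom without quality weights, with a term for the title-number range (-1.05, adjusted p = 0.145), and without control replicate 2 (-1.05, adjusted p = 0.147), RANKL replicate 1 (-1.54, adjusted p = 0.0867) or RANKL replicate 2 (-1.30, adjusted p = 0.104). Control replicate 2 was alone in its title-number range, so the fit with that term and the fit without this library are not separate checks. Whether strand was used in counting is not given, so reads of Rbm3 and Rbm3os cannot be told apart with certainty.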
